A study of Mus musculus with 15 samples.

Results

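Lamins and the proteins that hold them to the inner nuclear membrane were followed through costimulation of mouse CD8+ T cells. The group holds 9 of the 55536 Ensembl genes in the count table: the lamin genes Lmnb1, Lmnb2 and Lmna, the inner membrane and chromatin-binding genes Lbr, Tmpo, Emd and Banf1, and the SUN domain genes Sun1 and Sun2. Members were taken by symbol, matched to Ensembl identifiers in GENCODE M21. They were chosen by the gene counts of Lmnb1, which were higher in Ag+Costim than in Ag with no overlap between libraries, so the gene level of Lmnb1 in this contrast is described here and not tested. CD8+ T cells of OT-I transgenic mice, which carry a receptor for an ovalbumin peptide on a C57BL/6J background, were transferred into C57BL6/J recipients. All recipients were given antigen. By the study's methods, Ag recipients had the antigen peptide with a rat IgG control antibody, and Ag+Costim recipients had the peptide with the agonist antibodies anti-OX40 and anti-41BB. Cells were sorted from spleen and lymph nodes on day 4 by the labels, where the study's methods give a somewhat earlier time. Poly(A) RNA was sequenced after SMART-Seq amplification, which keeps no strand. The host kept its own lymphocytes, so the purity of the transferred cells rests on the sort. Each of the 2 groups had 5 libraries. The third group in the labels, naive OT-I cells, was not analysed here. The labels do not say whether each library came from its own recipient. The study's figure legends give 5 mice a group for its deep sequencing and treat each library as a biological replicate. The tests measure the spread between libraries only.

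The nuclear lamina is a meshwork of intermediate filament proteins under the inner nuclear membrane. B-type lamins (Lmnb1, Lmnb2) keep a farnesyl anchor in the membrane, whereas A-type lamins (Lmna) are spliced into lamin C and prelamin A, and prelamin A is cut to mature lamin A. Lbr, the lamin B receptor, ties heterochromatin to the membrane and is also a sterol reductase. LAP2 (Tmpo) and emerin (Emd) carry a LEM domain that binds BAF (Banf1), a small protein that bridges DNA. SUN proteins cross the inner membrane and join the lamina to the KASH proteins of the outer membrane. Lymphocytes are known for low A-type and high B-type lamin levels, and the envelope must be taken apart and rebuilt at each mitosis.

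Library depth and other cells differed between libraries. In units of 1000000 estimated counts, totals ran from 59.6 to 449 in Ag, where replicate 3 was the lowest, and from 332 to 639 in Ag+Costim. Except in Ag replicate 3, they exceed the reads a sample that the study's methods give for deep sequencing. Estimated counts are thus not numbers of reads. All 8 markers of CD8+ T cells were detected, with a summed level of 3463 to 6793 CPM in Ag and 4601 to 5563 CPM in Ag+Costim (CPM, counts per 1000000 after TMM scaling). Cd79a, a B cell receptor component, was at 23.2, 93.3 and 32.6 CPM in Ag replicates 1, 3 and 4 and at no more than 5.57 CPM in the other 7 libraries. All 7 B cell markers were detected, and their summed level, most of it Ighm, ran from 659 to 1223 CPM in Ag and from 531 to 783 CPM in Ag+Costim. The 6 erythroid markers summed to 1103 CPM in Ag replicate 3, to between 14.7 and 126 CPM in the other Ag libraries, and to between 3.8 and 39.8 CPM in Ag+Costim. Of the 6 stroma and endothelium markers, Pecam1 made up most of the sum, at 184 and 229 CPM in Ag replicates 1 and 4 and at most 68.1 CPM elsewhere, while the other 5 were highest in Ag replicate 3 (1.69 to 9.27 CPM) and under 1 CPM in all other libraries. Myeloid markers (8 genes) summed to between 41.6 and 158 CPM and CD4 T cell markers (3 genes) to between 0.885 and 11.4 CPM over all libraries. Pax5, a B cell marker, was at 0 in Ag replicates 2 and 5. The part of these cells in the results below was not tested. In bulk RNA, fewer cells of a type and less RNA per cell cannot be told apart.

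Lmnb1, which encodes the farnesylated lamin B1, had the widest separation of the group. The Ensembl gene ENSMUSG00000024590.8 lies on chromosome 18 from 56707813 to 56753424 (mm10, plus strand). Its level was 19, 183, 98.7, 31.9 and 125 CPM in Ag replicates 1 to 5 and 302, 382, 443, 363 and 326 CPM in Ag+Costim replicates 1 to 5. Every Ag+Costim library stood above every Ag library, and within Ag the highest library was 9.63 times the lowest, against 1.46 times in Ag+Costim. The fitted log2 fold change (Ag+Costim over Ag) was 1.99 ± 0.53 (SE), a 3.98-fold difference. These values chose the group.

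**Figure D1:**
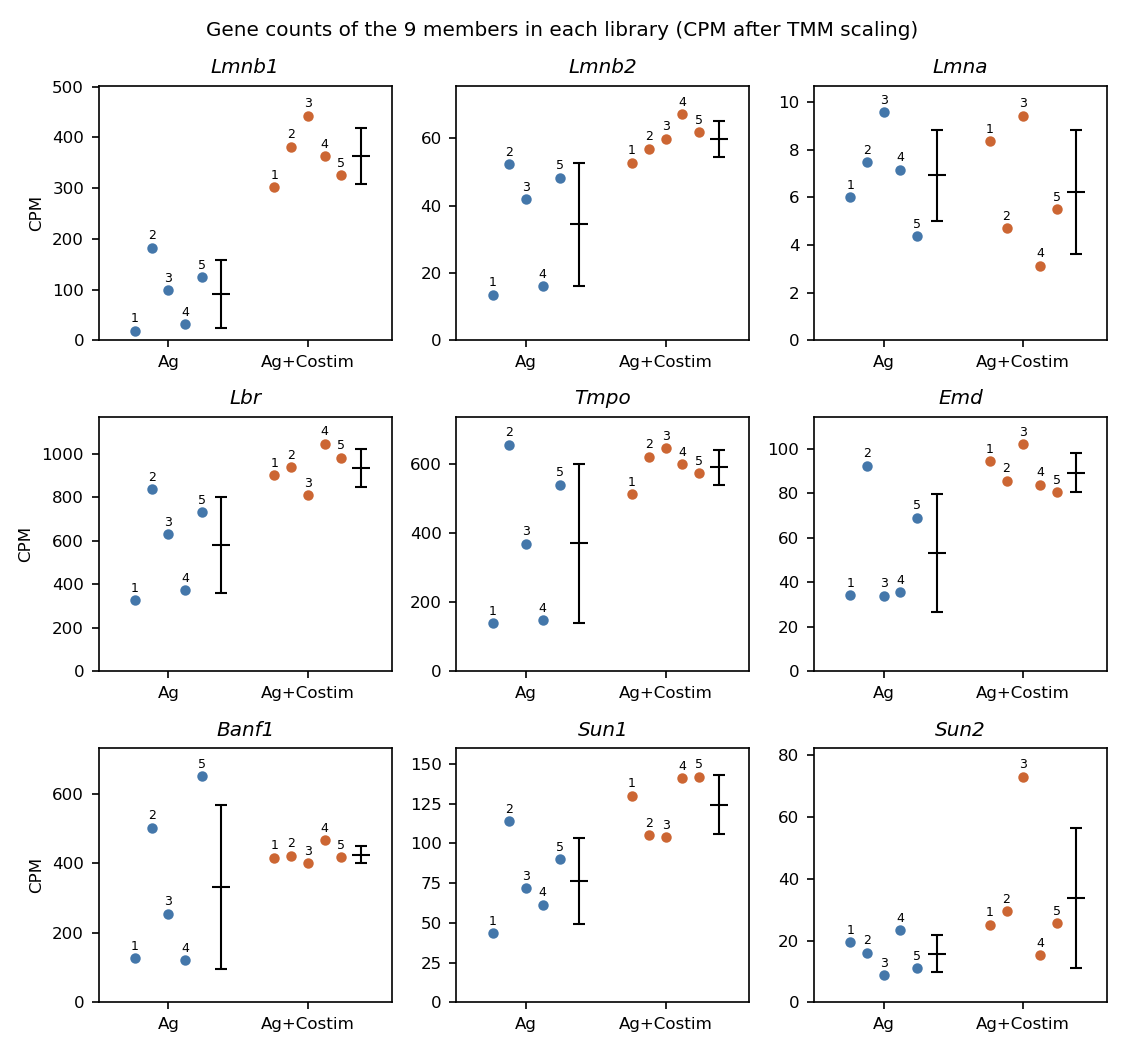
CPM after TMM scaling (vertical axes, each from 0) of the 9 members in the 5 Ag (blue) and 5 Ag+Costim (orange) libraries; digits are replicate numbers, and black bars give the mean and SD of each group. Ag replicates 1 and 4 sit low for most members, and Lmnb1 and Lmnb2 are the panels in which no Ag library reaches the lowest Ag+Costim library.

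The other lamin genes had smaller log2 fold changes than Lmnb1. Lmnb2, which encodes lamin B2, was at 13.6, 52.3, 42, 16.2 and 48.4 CPM in Ag and at 52.8, 57, 59.9, 67.3 and 61.8 CPM in Ag+Costim. Its groups did not overlap, although Ag replicate 2 came within 1 CPM of Ag+Costim replicate 1. The log2 fold change was 0.79 ± 0.36 (SE) and did not pass edgeR's quasi-likelihood test with Benjamini-Hochberg (BH) adjustment over 24262 genes (adjusted p = 0.268). Lmna, the A-type lamin gene, was at 6.02, 7.49, 9.56, 7.16 and 4.37 CPM in Ag and at 8.36, 4.71, 9.43, 3.14 and 5.51 CPM in Ag+Costim. These ranges overlapped almost entirely, with a log2 fold change of -0.15 ± 0.32 (edgeR adjusted p = 0.774). Lmna was the one member with a mean under 10 CPM, resting on 679 to 5501 counts a library. Its sign was positive without a filter on low counts and without Ag+Costim replicate 4.

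Among the inner membrane and chromatin-binding members, levels in Ag+Costim were uniform while the Ag libraries were spread out. Lbr was at 328, 838, 632, 375 and 731 CPM in Ag and at 902, 939, 811, 1047 and 982 CPM in Ag+Costim, where 1 Ag library reached the Ag+Costim range. Tmpo, which encodes the LAP2 proteins, was at 140, 655, 369, 148 and 540 CPM in Ag and at 513, 621, 645, 599 and 572 CPM in Ag+Costim. Emd, the emerin gene, was at 34.3, 92.4, 34, 35.7 and 69 CPM in Ag and at 94.4, 85.7, 102, 83.9 and 80.5 CPM in Ag+Costim. For Tmpo, 2 Ag libraries (replicates 2 and 5) lay inside the Ag+Costim range or above it, and for Emd 1 did (replicate 2). Banf1, the gene of the DNA-bridging protein BAF, was at 127, 503, 255, 121 and 650 CPM in Ag and at 416, 422, 401, 466 and 418 CPM in Ag+Costim. Ag replicates 2 and 5 thus exceeded every Ag+Costim library for Banf1, while the other 3 Ag libraries lay below all of them. The log2 fold changes were 0.69 ± 0.26 for Lbr, 0.67 ± 0.40 for Tmpo, 0.75 ± 0.29 for Emd and 0.36 ± 0.44 for Banf1 (SE). None passed the edgeR test, with adjusted p of 0.252, 0.33, 0.257 and 0.606 in that order.

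Sun1 and Sun2 encode the inner membrane side of the bridge between lamina and cytoskeleton. Sun1 was at 43.5, 114, 72, 61.5 and 90.1 CPM in Ag and at 130, 105, 104, 141 and 142 CPM in Ag+Costim. Only Ag replicate 2 entered the Ag+Costim range, and the log2 fold change was 0.71 ± 0.24 (SE, edgeR adjusted p = 0.237). Sun2 was at 19.6, 16.1, 8.83, 23.3 and 11.1 CPM in Ag and at 25.2, 29.6, 73.1, 15.4 and 25.6 CPM in Ag+Costim. Sun2, like Lmna, did not have the low values in Ag replicates 1 and 4 seen in the other 7 members. Ag replicates 1 and 4 were its highest Ag libraries, and Ag+Costim replicate 3 stood far above the rest. Its log2 fold change was 1.10 ± 0.41 (SE, edgeR adjusted p = 0.252) and was 0.63 without Ag+Costim replicate 3.

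Of the 8 members apart from Lmnb1, 7 had a positive log2 fold change and 0 passed the edgeR test at an adjusted p of 0.05. Across all genes the share passing was also 0% of 24262, although 4501 genes had an unadjusted p under 0.05. At that unadjusted level, 5 of the 8 were higher in Ag+Costim, where 20.2% of 8626 genes averaging at least 10 CPM were. Of the 8, only 1, Lmnb2, had groups that did not overlap, in the higher direction, a pattern held by 11.3% of those 8626 genes. The lower direction, at 0.22% of those genes, held no member. The groups of Lmnb1 did not overlap either, but this chose the members and is not counted. The median log2 fold change of the 8 was 0.70, beside 0.24 over the 8626 genes. That second value depended on scaling: it was 0.12 with DESeq2 size factors, 0.02 with upper quartile scaling and 0 with total counts, so changes are best read relative to it. DESeq2's Wald test called Sun1 alone among the 8 (adjusted p = 0.0411), with Lbr at 0.0526 and Emd at 0.0559. It called 2.57% of 36117 genes as higher, a share without the minimum of 10 CPM. limma voom with a weight per library called 6 of the 8, all but Lmna and Sun2, at adjusted p of 2.84e-05 to 0.000224. It called 25.8% of 24262 genes as higher, also without the minimum of 10 CPM, so neither share is of genes at like level. Its weights for Ag ran from 0.0656 for replicate 5 and 0.0986 for replicate 2 up to 2 for replicate 4, so the Ag libraries nearest to Ag+Costim counted least. Its log2 fold changes were larger than those of edgeR for several members, at 3.55 for Lmnb1, 1.81 for Lmnb2, 1.80 for Tmpo and 1.59 for Banf1. For Sun2 the value was smaller, at 0.52 beside 1.10 in edgeR.

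Other genes of the nuclear envelope, or related to it, were taken from 5 lists of 38 genes in all, each of them measured. Not all are envelope components, since the lists also hold kinases, maturation enzymes and HP1 proteins. Of the 38, 0 passed the edgeR test after adjustment (lowest adjusted p = 0.182), 9 had an unadjusted p under 0.05 in the higher direction and 1 in the lower, and 32 had a positive log2 fold change with a median of 0.27. Among the 34 with 10 CPM or more, 6 did not overlap between groups in the higher direction and 0 in the lower. Over all genes averaging at least 10 CPM, the shares were 20.2% for the unadjusted p and 11.3% for groups without overlap in the higher direction, so these counts are read against them. The 4 with the highest log2 fold changes were Syne3 (1), the nesprin 3 gene, Ankle1 (0.96), a LEM domain nuclease, Tmem201 (0.94), an inner membrane protein that moves with the nucleus, and Cbx5 (0.93), which encodes HP1α. At the other end stood Srpk1 (0.00), a kinase of SR proteins and Lbr, Lpin1 (-0.11), a phosphatidate phosphatase that shapes the membrane, Syne2 (-0.24) and Syne1 (-1.24), the giant KASH proteins nesprin 2 and nesprin 1. Syne1 had an edgeR adjusted p of 0.245 and overlapping groups. Here too the tools differed. DESeq2 called 6 of the 38 as higher (Ankle1, Cbx3, Chmp7, Dhcr7, Syne3 and Tmem201) and Syne1 as lower (adjusted p = 0.0313), and limma voom with library weights called 25 as higher and 3 as lower, Syne1 and Syne2 among the latter. The sign of Srpk1 was negative under all 3 other scalings.

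By role, the 5 genes of the HP1 and Lbr-related list all had positive values with a median of 0.57, and 3 of its 4 genes with 10 CPM or more did not overlap (Cbx5, Cbx3 and the sterol reductase gene Dhcr7), beside 11.3% of all genes at that level. The 13 LEM and other inner membrane genes had a median of 0.21, with 11 positive values. The 10 genes of phosphorylation and mitotic release, among them the kinases Cdk1, Vrk1 and Plk1, had a median of 0.36, with 9 positive values. The 5 maturation enzymes of farnesylated lamins, Fnta, Fntb, Rce1, Zmpste24 and Icmt, had a median of 0.22, close to that of all genes. The 5 KASH genes had a median of -0.24, with 2 positive values, and a median of 0.01 over the 4 with 10 CPM or more, which leaves out Syne4.

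**Figure D2:**
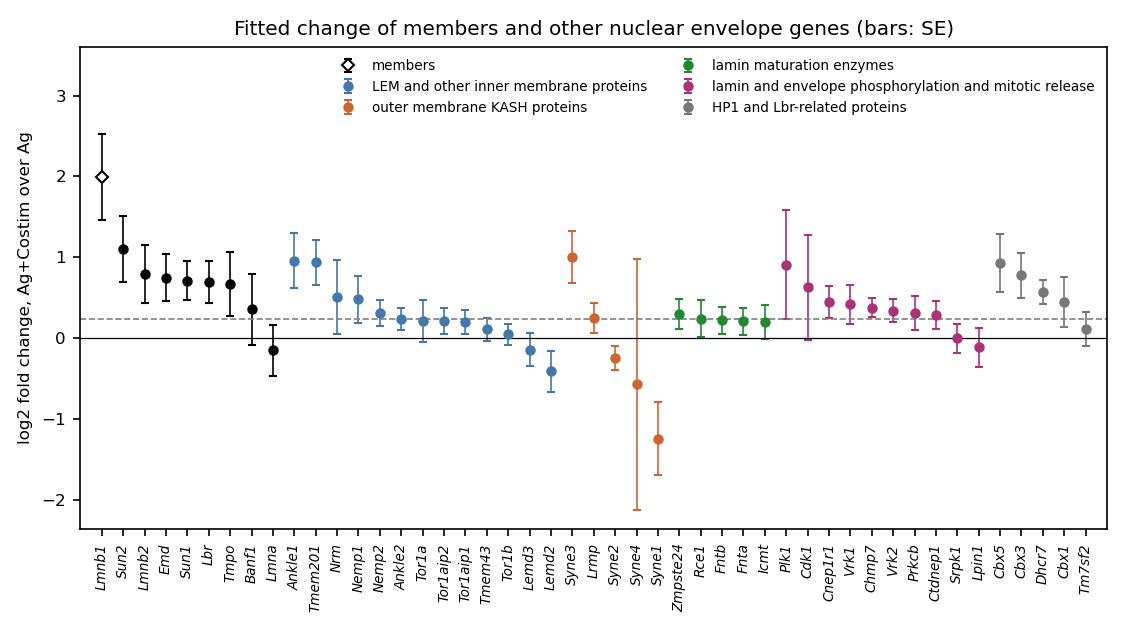
Fitted log2 fold change, Ag+Costim over Ag (vertical axis), with SE as bars, for the 9 members and 38 other genes of the nuclear envelope or related to it, sorted within each list. The open diamond is Lmnb1, on which the members were chosen, and the dashed line is the median of the 8626 genes averaging at least 10 CPM (0.24). Members run from 1.99 for Lmnb1 to -0.15 for Lmna, and Syne1 is lowest at -1.24.

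To compare levels between genes, transcript counts were divided by transcript length and scaled to the same total in each library (TPM). In Ag+Costim the order of mean TPM was Banf1 (563 ± 28.1), Lbr (413 ± 36.9), Tmpo (313 ± 24.3), Lmnb1 (195 ± 28.4), Emd (93.4 ± 8.83), Sun1 (51.5 ± 7.34), Lmnb2 (27 ± 2.25), Sun2 (14.6 ± 9.18) and Lmna (4.53 ± 1.89; SD, n = 5 throughout). Neighbours in this order did not overlap from Banf1 down to Lmnb2, while Sun2 overlapped both Lmnb2 and Lmna. In Ag the order was the same except that Emd (59.8 ± 17.7) stood above Lmnb1 (49.3 ± 31.2), and the neighbours that did not overlap were Tmpo with Emd and Sun1 with Lmnb2. The A-type gene was thus the lowest of the group in both conditions by mean. The ratio of Lmnb1 to Lmnb2 in TPM was 1.65, 4.19, 2.77, 2.35 and 3.07 in Ag and 6.85, 7.98, 8.8, 6.45 and 6.2 in Ag+Costim. The ratio of Lmnb1 to Lmna ran from 2.42 to 21.3 in Ag and from 27.4 to 84.6 in Ag+Costim. Both ratios use the level of Lmnb1 on which the group was chosen.

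**Figure D3:**
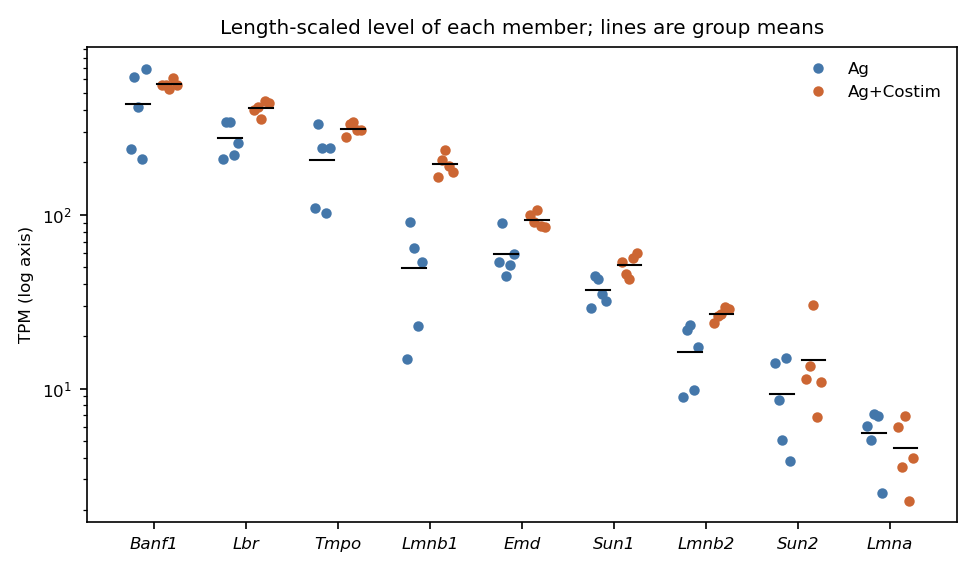
Length-scaled level (TPM, log axis) of each member in the 5 Ag (blue) and 5 Ag+Costim (orange) libraries, ordered by the Ag+Costim mean; short lines are group means. Banf1 leads with 563 TPM and Lmna is last with 4.53 TPM in Ag+Costim, and the 2 groups of Lmnb1 are far apart.

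Because the envelope is rebuilt at each division, members were set beside a list of 20 cell cycle genes. Its summed level was 1548, 11288, 7112, 1661 and 12462 CPM in Ag and 11570, 11773, 11315, 14323 and 13155 CPM in Ag+Costim. Ag replicates 1 and 4 were thus far below all other libraries, whereas Ag replicate 5 lay inside the Ag+Costim range and Ag replicate 2 just below it. All 20 genes had a positive log2 fold change (median 0.88, beside 0.24 over the 8626 genes), 6 did not overlap between groups, beside 11.3% of those genes, and 0 passed the edgeR test (1 at an unadjusted p under 0.05). Per 1000 CPM of the list, Lmnb1 stood at 12.3, 16.2, 13.9, 19.2 and 10 CPM in Ag and at 26.1, 32.5, 39.1, 25.3 and 24.8 CPM in Ag+Costim, with no overlap. These values use the level of Lmnb1 on which the group was chosen, so its separation on this scale is a description and not a contrast with the others. The other 8 members overlapped on this scale. Tmpo, for example, ran from 43.3 to 90.6 in Ag and from 41.8 to 57 in Ag+Costim, and Lmnb2 from 3.88 to 9.76 and from 4.57 to 5.29. Lbr was highest relative to the list in Ag replicates 1 and 4 (212 and 226) and between 58.7 and 88.9 in all other libraries. The part of cycling cells in the levels of the members was not tested.

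**Figure D4:**
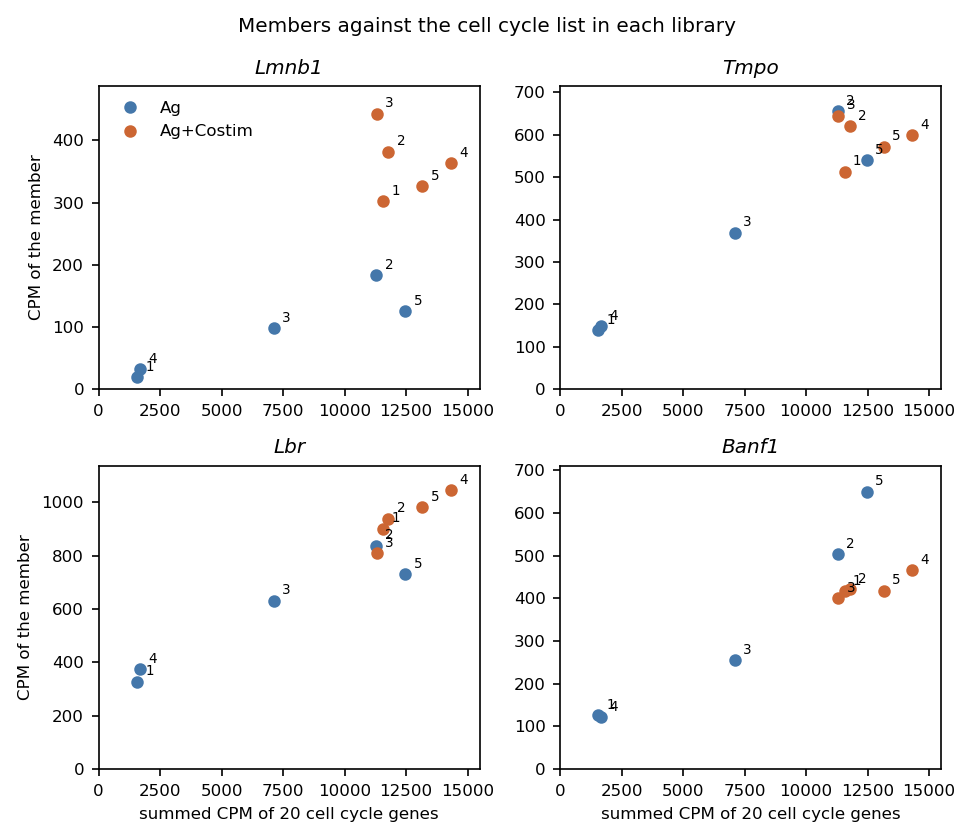
CPM of Lmnb1, Tmpo, Lbr and Banf1 (vertical axes) against the summed CPM of 20 cell cycle genes (horizontal axes) in each Ag (blue) and Ag+Costim (orange) library; digits are replicate numbers. Ag replicates 2 and 5 share the cell cycle level of Ag+Costim and lie with it for Tmpo and above it for Banf1; for Lmnb1 they are at 183 and 125 CPM, below it, as the choice of the group on Lmnb1 fixes.

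The 5 genes whose pattern was most like that of Lmnb1, by Pearson correlation of log2 CPM over the 10 libraries among genes with 10 CPM or more and with members left out, were Erap1, Poc1b, Prpf19, Tmem184b and Iars2, each with r = 0.99. The points share 2 groups and their depth, and the correlation is a description. Prpf19, a spliceosome component, averaged 87.7 ± 37.3 CPM over the Ag libraries and 204 ± 20.3 CPM over those of Ag+Costim (SD, n = 5). Erap1, which trims peptides for MHC class I, averaged 114 ± 21 and 153 ± 3.16 CPM. Between 1 and 4 of the 5 names stayed among the top 5 under other scalings or without 1 library, so the ranking was unstable.

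Beyond gene totals, transcript counts estimate how the RNA of each gene divides among its annotated forms, a measure that did not choose the group. Protein was not examined here. The 9 genes have 74 annotated transcripts in the table, of which 23 held a mean share of 5% or more of their gene in either group. Lmnb1 and Lbr each came from a single transcript, of 588 codons at 99.9 to 100% of Lmnb1 counts and of 626 codons at 99.1 to 99.7% of Lbr counts. Banf1 came mostly from 1 of a pair of transcripts that encode the same 89 codons, at 83.9 to 91% of counts over all libraries. In edgeR's test of transcript usage, with a call needing an adjusted p under 0.05 and a change in mean share over 10 percentage points, 0 of the 9 members were called, where 0.297% of 10440 genes were. The lowest unadjusted p was 0.022 for Sun1 (adjusted p = 0.568), followed by Lmna at 0.066 (adjusted p = 0.835). Sun2, with 17.8 points, and Emd, with 13.5 points, had the widest changes in mean share, both at an adjusted p of 1.

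The sequences below carry the differences between these forms. They are in mm10 coordinates from GENCODE M21 transcripts, spliced and read 5′ to 3′ on the coding strand. The first 3 are the coding ends of the lamins that carry or lack the farnesyl motif. In Lmna-201 (prelamin A, chr3:88482074-88482363, minus strand) and the main transcript of Lmnb2 (chr10:80902859-80903214, minus strand), capitals mark the last 4 codons, which open with a cysteine codon, and the stop. In Lmna-203 (lamin C, chr3:88483297-88483341, minus strand) capitals mark the bases that are not in the prelamin A coding sequence, with the stop, and no such motif is present.
Lmna-201: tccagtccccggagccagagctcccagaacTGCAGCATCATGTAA
Lmnb2: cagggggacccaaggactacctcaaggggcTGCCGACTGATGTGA
Lmna-203: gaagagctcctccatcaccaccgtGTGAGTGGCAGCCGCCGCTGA

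By transcript counts, lamin C was the main form of Lmna. Among counts on the 2 coding ends, the lamin C share was 88.5, 89.8, 63.9, 89.9 and 85.8% in Ag and 83.3, 96.3, 91.5, 93.6 and 87.4% in Ag+Costim. Only Ag replicate 3, the shallowest library, stood below the rest. The means, 83.6 ± 11.1% and 90.4 ± 5.15% (SD, n = 5), differed by 6.83 points, which a two-sided exact permutation test did not separate (p = 0.246, adjusted p = 0.535 over 11 isoform-share tests). Without Ag replicate 3 the difference was 1.92 points. Lmna-205, a transcript with a retained intron, took 8.3 and 17.4% of Lmna counts in Ag replicates 1 and 3 and at most 2.3% in the other 8 libraries. For lamin B2, the main transcript (596 codons) held 81.6 ± 5.66% of counts in Ag and 88.1 ± 6.64% in Ag+Costim. A second transcript (615 codons) held nearly all the rest. It shares the exons of the first except for 161 further bases at the 3′ end, and starts translation 57 coding bases further upstream. The reads that separate the pair thus come from the 3′ end. The inclusion value of those bases, given below, was far lower than the share of this second transcript.

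LAP2 forms part after a shared exon, and the next pair shows where. Capitals mark the first bases after that exon in Tmpo-201 (LAP2α, chr10:91163317-91164072, minus strand), whose own last exon replaces the membrane span, and in Tmpo-202 (LAP2β, chr10:91158801-91164072, minus strand), which keeps it.
Tmpo-201: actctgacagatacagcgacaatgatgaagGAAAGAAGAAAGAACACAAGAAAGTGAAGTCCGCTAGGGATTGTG
Tmpo-202: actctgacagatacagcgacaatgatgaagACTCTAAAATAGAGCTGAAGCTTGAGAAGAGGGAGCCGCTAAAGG

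LAP2β was the main form in every library, with 57.4 to 71.7% of Tmpo counts in Ag and 62.8 to 66.8% in Ag+Costim. Tmpo-203, which lacks a 120-base coding exon of LAP2β, held 13.5 to 27% in Ag and 15.6 to 18.8% in Ag+Costim. The LAP2α share of coding counts was 7.68, 6.11, 10.2, 7.2 and 8.88% in Ag and 9.37, 8.44, 9.25, 10.9 and 10.1% in Ag+Costim. The Ag+Costim mean was 1.58 points higher, and the two-sided exact permutation test gave p = 0.0952 (adjusted p = 0.524). The unadjusted p was 0.0238 without Ag replicate 3, at a difference of 2.13 points. The splicing table, which gives 1 inclusion value (PSI, the fraction of the transcripts informative for a segment that hold it) per group, put the LAP2α exon at 0.0595 in Ag and 0.0743 in Ag+Costim, and the 120-base exon at 0.853 and 0.856. These values have no replicates.

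Emd gave 2 forms that end in different exons. The pair below shows the end of the last shared exon in lower case and, in capitals, the first 60 bases of the last exon of Emd-201 (chrX:74256895-74257066, plus strand) and the whole remaining coding sequence with the stop of Emd-202 (chrX:74256895-74260809, plus strand). Emd-201 has 259 codons. Emd-202 has 158 and lacks the end of emerin that spans the membrane.
Emd-201: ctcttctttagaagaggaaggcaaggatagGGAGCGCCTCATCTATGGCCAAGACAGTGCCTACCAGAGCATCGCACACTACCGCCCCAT
Emd-202: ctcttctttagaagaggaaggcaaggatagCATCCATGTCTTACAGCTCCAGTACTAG

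The share of Emd counts on Emd-201 was 34.6, 51.9, 38.5, 38.1 and 36.4% in Ag and 55.3, 54.6, 54.1, 49.8 and 53.1% in Ag+Costim. Only Ag replicate 2 entered the Ag+Costim range, and edgeR's test of usage across all genes did not call the gene (edgeR adjusted p = 1). The counts of Emd-202 are uncertain. Its last exon, 767 bases long, holds the processed pseudogene Gm14686 (chromosome X, 74261032 to 74261374, same strand), whose 343 bases matched Eif1, a translation initiation factor gene, at 96.8% identity over their whole length. Eif1 was at 364 to 748 CPM in Ag and 541 to 598 CPM in Ag+Costim, and Gm14686 itself was at no more than 0.0168 CPM before TMM scaling. Whether Eif1 reads entered Emd-202 was not tested. Counted on Emd-201 alone, Emd was at 11.9, 48, 13.1, 13.6 and 25.1 CPM in Ag and at 52.2, 46.8, 55, 41.8 and 42.7 CPM in Ag+Costim, with 1 Ag library still inside the Ag+Costim range. The last exon of Emd-202 was annotated in the splicing table only by its tandem ends, so PSI gave no value for the choice between the 2 last exons.

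Sun1 and Sun2 forms differ by short coding exons. The 111-base exon of Sun1 (chr5:139231127-139231237, plus strand) is present in the Sun1 form of 913 codons and absent from that of 876 codons. The 96-base exon of Sun2 (chr15:79737473-79737568, minus strand) is present in the Sun2 form of 729 codons and absent from that of 699 codons. These 2 Sun2 forms differ by 90 coding bases net, so the shorter form also holds coding bases that the longer lacks. The third line gives in capitals the 6 bases at an alternative acceptor (chr15:79735920-79735925) that the Sun2 form of 731 codons holds and that of 729 codons lacks, between 20 bases on either side in lower case.
Sun1 exon: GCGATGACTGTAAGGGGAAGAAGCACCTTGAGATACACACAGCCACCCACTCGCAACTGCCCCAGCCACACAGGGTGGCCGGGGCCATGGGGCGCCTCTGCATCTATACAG
Sun2 exon: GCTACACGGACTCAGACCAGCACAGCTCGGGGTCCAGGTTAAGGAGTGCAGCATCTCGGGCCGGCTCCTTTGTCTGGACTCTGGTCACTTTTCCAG
Sun2 acceptor: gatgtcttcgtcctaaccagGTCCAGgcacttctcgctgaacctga

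The Sun1 form without the 111-base exon held 22.2, 22.9, 33.7, 27.3 and 25.8% of Sun1 counts in Ag and 27.7, 29.7, 28.9, 39 and 46.6% in Ag+Costim. The groups overlapped through Ag replicate 3. PSI of that exon was 0.88 in Ag and 0.873 in Ag+Costim, so the difference of 8 points in the mean transcript share had no counterpart in PSI. Another form (849 codons), which lacks another exon of 192 bases, ranged from 1.2 to 17.7% in Ag and from 2.3 to 9.2% in Ag+Costim. The share of Sun1 counts on transcripts annotated as non-coding was 5.77 ± 3.86% in Ag and 2.67 ± 0.59% in Ag+Costim, and this was the lowest p among the isoform-share tests (exact permutation p = 0.0556, adjusted p = 0.524). The difference, -3.1 points, was -1.53 points without Ag replicate 1 and -4.15 points without Ag replicate 2 (unadjusted exact permutation p = 0.103 and 0.00794).

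Sun2 varied most between libraries. The Sun2 form of 729 codons held 48.6, 52.8, 0, 15.7 and 29.6% of counts in Ag and 44.4, 43, 57.5, 39.8 and 50.8% in Ag+Costim, while the form of 731 codons reached 72.1% in Ag replicate 4. In Ag replicate 3, whose Sun2 level rested on the fewest counts of any library (627), a retained-intron transcript of 4413 bases took 65.7%, against at most 3.3% elsewhere. Non-coding Sun2 transcripts made up 25.5 ± 30.4% of counts in Ag and 10.8 ± 6.01% in Ag+Costim (exact permutation p = 0.357). The difference of -14.8 points was -1.34 points without Ag replicate 3. PSI of the 96-base exon was 0.876 in Ag and 0.944 in Ag+Costim, whereas the share of the form that lacks it was 10.5 ± 9.61% and 18.2 ± 6.37%, so the differences of the 2 measures between groups went opposite ways. PSI of the 6 acceptor bases was 0.721 and 0.656.

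**Figure D5:**
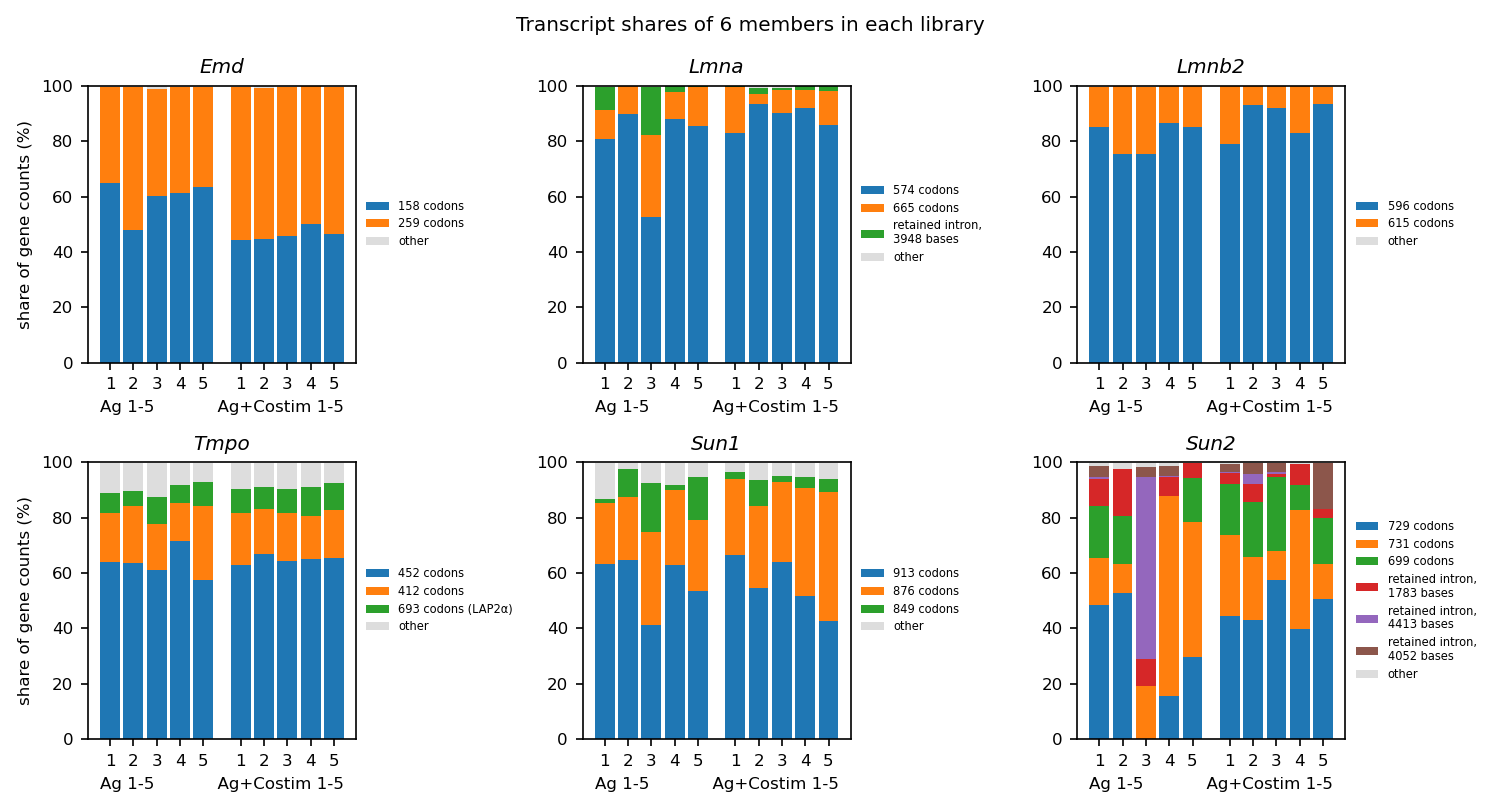
Share of gene counts in percent (stacked bars, 0 to 100) on each transcript with a mean share of 5% or more, for 6 members in the 5 Ag (left) and 5 Ag+Costim (right) libraries; grey is all other transcripts, and coding transcripts are named by their codons. The Emd form of 259 codons (Emd-201) is at 49.8 to 55.3% in Ag+Costim, and Ag replicate 3 stands apart for Lmna and Sun2.

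Over the group, 125 splicing events had PSI values, and 10 of them (8%) differed by more than 0.05 between Ag and Ag+Costim, where 11.9% of all 138940 events did. Exon use in the lamins was near complete in both groups. The 9 core exons of Lmnb1 had a PSI of 0.998 or more, and the 12 of Lbr differed by at most 0.00013. The prelamin A exon of Lmna was at 0.922 in Ag and 0.925 in Ag+Costim. This value counts skipping among transcripts that splice past the exon, and lamin C, which ends before it, does not enter. The 161 bases at the 3′ end of the Lmnb2 transcript of 615 codons were at 0.0225 in Ag and 0.00719 in Ag+Costim. That transcript held 18.3 ± 5.58% of Lmnb2 counts in Ag and 11.8 ± 6.68% in Ag+Costim, so the 2 measures do not match. Of the 10 events, 5 were in Sun2, 2 in Lmna, 2 in Emd and 1 in Sun1, and 8 concerned transcript starts or ends. The widest was a tandem start of Sun2 (chromosome 15, 79742339 to 79742504), at 0.257 in Ag and 0.588 in Ag+Costim. The 30 and 2 bases next upstream of it were at 0.326 and 0.467 in Ag and at 0.0251 and 0.415 in Ag+Costim. The 28 bases at the upstream start of Lmna (chromosome 3, 88503308 to 88503335), which Lmna-201 holds and Lmna-203 lacks, were at 0.893 and 0.749. The 560 bases after them were at 0.106 and 0.252. The high PSI of those 28 bases does not match the shares of Lmna-203, 79.4 ± 15.3% of counts in Ag and 88.9 ± 4.42% in Ag+Costim. The tandem ends of the Emd-201 last exon were at 0.338 and 0.417 for the shorter segment and at 0.662 and 0.583 for the longer. A tandem end of Sun1 (chromosome 5, 139248644 to 139249795) was at 0.272 and 0.218. These values have no replicates and no stated depth.

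Since several members shared low values in Ag replicates 1 and 4, the 250 bases upstream of their RefSeq starts (GRCm38.p6) were searched on both strands for the cell cycle element CHR (TTTGAA), the CCAAT box (CCAAT) and 2 forms of the E2F site (TTTCCCGC and TTTGGCGC). There were 13 such promoters for 8 members, and none for Lmnb1 was used here. CHR letters stood in 3 of the 13 (Lbr, Sun2 and 1 of the Tmpo promoters), where 16% of 32851 promoters held them. CCAAT stood in 8 of the 13, against 33.8%. The first E2F form stood in 2 (Banf1 and the same Tmpo promoter), against 0.895%, and the second in none, against 0.417%. The other Tmpo promoter (chr10:91171620-91171869), next to the starts of Tmpo-201, Tmpo-202 and Tmpo-203, held CCAAT alone. The promoters of Lbr (chr1:181842402-181842651, minus strand) and Tmpo (chr10:91170551-91170800, minus strand, an internal start) are shown as examples that hold CHR letters together with another of these motifs. Capitals mark the matches. In Lbr these are CCAAT at -68 and -28 and CHR on the other strand at -45, and in Tmpo the first E2F form at -195 and CHR at -28, counted from the start to the first base of each match.
Lbr: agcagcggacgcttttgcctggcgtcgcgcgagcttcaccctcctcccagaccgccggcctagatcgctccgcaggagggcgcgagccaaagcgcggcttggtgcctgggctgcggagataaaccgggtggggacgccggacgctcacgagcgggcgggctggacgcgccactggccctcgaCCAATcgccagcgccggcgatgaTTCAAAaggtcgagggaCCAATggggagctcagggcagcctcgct
Tmpo: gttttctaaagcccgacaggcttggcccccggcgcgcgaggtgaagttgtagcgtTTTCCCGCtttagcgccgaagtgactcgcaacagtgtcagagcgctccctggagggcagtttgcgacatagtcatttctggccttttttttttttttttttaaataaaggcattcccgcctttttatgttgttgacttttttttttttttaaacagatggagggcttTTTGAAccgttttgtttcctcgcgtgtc

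A match of letters is a description of the window and not evidence of a bound site. The promoter of Sun2 holds both CHR letters and CCAAT, and neither of the Lmnb2 promoters holds any of the 4 motifs. Several members also overlap genes on the opposite strand (Lbr with Dnah14, Tmpo with Gm26765, Banf1 with Eif1ad, Sun1 with 4930520M14Rik and Sun2 with Gm16575), whose reads cannot be told apart in libraries without strand. Lmnb1, Lmnb2 and Lmna overlap no other gene in GENCODE M21.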

How the data were processed

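Poly(A) RNA of sorted OT-I CD8+ T cells was sequenced by the authors (SMART-Seq v4, Nextera XT), aligned to mm10 with HISAT2 2.1.0, handled with SAMtools 1.9 and assembled with StringTie 2.1.0, per the labels and the study's methods. The deposited gene and transcript tables hold estimated counts (expected counts) as whole numbers for 5 Ag and 5 Ag+Costim libraries. The deposited splicing table holds PSI from Whippet as a fraction, 1 value per group, so no test was made. Its columns of the authors' own comparison (PSI difference and probability) were not used, and events were taken by a PSI difference over 0.05 alone, although a probability threshold had been planned. The lane and sample lists, which hold no measurement, were not used. Entries without an Ensembl identifier (26345, with 0.0458 to 0.308% of counts) were left out.

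Gene counts were fitted with edgeR 4.0.16 (R 4.3.3; filterByExpr, TMM, robust quasi-likelihood test, BH over 24262 genes), and transcript usage with diffSpliceDGE over 10440 genes. DESeq2 1.42.0 and limma 3.58.1 were alternatives. Isoform shares were compared by two-sided exact permutation tests, for which the smallest p with 5 against 5 libraries is 0.0079. Procedures were tested on simulated data. For gene counts, the simulated spread between libraries was smaller than the fitted one (common dispersion 1.01), so that test does not show the power here. For transcript usage, the simulated spread was a fixed setting and not fitted to these data, so that test does not show it either. PSI carries no depth, so its precision is unknown. The members and gene lists were chosen with earlier results of these data known. Named were all members, the 4 highest and 4 lowest of the other envelope lists at 10 CPM or more, the 5 genes most like Lmnb1, member transcripts with a share of 5% or more and member events past the PSI difference. Markers, Cdk1, Vrk1, Plk1, Chmp7, Cbx3, Syne4, Dhcr7 and the maturation enzymes were named as examples of their lists after their values were seen, and so were the pair of promoters printed.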

Additional observations from a re-analysis of the deposited data

Results flagged for a closer look

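In 11 of 85 groups of 5 libraries tested, over the levels of the members, the shares of their named transcripts and the isoform-share tests, 1 library stood apart from the other 4 by Dixon's ratio (critical value 0.71). Chance alone flags about 1 group in 20, and shares of 1 gene are not independent.

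Ag replicate 3, the library with the fewest counts, accounted for 5 of the 11. There, Lmna-203 was at 52.7% and Lmna-201 at 29.7% of Lmna counts, the lamin C share was at 63.9%, a retained-intron Sun2 transcript of 4413 bases was at 65.7% of Sun2 counts and non-coding Sun2 transcripts were at 79.3%. In Ag replicate 2, Emd-201 was at 51.9% and Emd-202 at 47.8%, closer to Ag+Costim than the other Ag libraries were.

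In Ag+Costim, Sun2 stood at 73.1 CPM in replicate 3, that same transcript at 3.3% in replicate 2 and another retained-intron transcript of 4052 bases at 16.7% in replicate 5. Non-coding Lmnb2 transcripts were at 0.201% in Ag+Costim replicate 5 and were listed at 0 in the other 4 libraries of that group.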

How the results depend on the processing

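Of the 8 members tested in gene counts, 0 passed in edgeR under any other scaling, without the filter or without any 1 library, DESeq2's Wald test called 1 and limma voom with library weights called 6. With the replicate block the count stayed at 0, at adjusted p of 0.488 to 0.873. Deviations of same-numbered libraries from their group means correlated at -0.44 to 0.21, and only 1 of the numbers matched best with itself. The numbers thus gave no sign of pairing, and whether libraries shared a batch was not tested. Leaving out each library gave 0 members called throughout for transcript usage, and its paired fit also gave 0.

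Leaving out 1 library moved the log2 fold change of Lmnb1 between 1.73 and 2.42, of Banf1 between 0.15 and 0.77 and of Tmpo between 0.47 and 1. Lmna ranged from -0.33 to 0.03 in this way, and its sign reversed to 0.26 without the filter and to 0.03 without Ag+Costim replicate 4. Among the genes of the other lists, Lpin1 turned to 0.21 without the filter. It turned to 0.01 without Ag replicate 4 and 0.06 without Ag+Costim replicate 4 (-0.19 to 0.06 without 1 library). Syne2 turned to 0.11 without the filter. Srpk1, at 0.00, turned to -0.14 in DESeq2 and with its size factors, -0.25 with upper quartile scaling, -0.31 with total counts, -0.22 in limma, and ranged from -0.10 to 0.13 without 1 library. The cause was not tested. The LAP2α share difference passed an unadjusted exact permutation p of 0.05 when counts were divided by length (1.39 points, p = 0.0476) and without Ag replicate 3 (2.13 points, p = 0.0238), and ranged from 1.1 to 2.13 points without 1 library. With the replicate block it was 1.58 points (exact sign-flip p = 0.125). A PSI difference over 0.1 kept 4 of the 10 events. Counting Emd on Emd-201 alone, chosen after seeing the data, gave a log2 ratio of group means of 1.09.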
